A study of Mus musculus with 4 samples.

Results

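The genes of voltage-gated sodium channels, voltage-gated calcium channels and HCN channels were followed from whole prefrontal cortex to the ribosomes captured from it. Members were every gene whose symbol names a pore-forming or auxiliary subunit of these families, 36 of the 24100 genes counted. They comprised 10 sodium channel α genes, 4 sodium channel β genes, 10 calcium channel α1 genes, 4 α2δ genes, 4 calcium channel β genes and 4 HCN genes. Symbols alone set which genes belonged, but the choice was made with earlier results of these data known.

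The animals of every library were untreated male adults of the Crh-IRES-Cre line, in which the recombinase Cre is expressed along with the neuropeptide gene Crh (corticotropin-releasing hormone). Prefrontal cortex was homogenized, and polysomes carrying an EGFP tag were pulled out with antibodies to EGFP, a method called translating ribosome affinity purification (TRAP). The groups were 1 Input library, representing the whole tissue, and 3 immunopurified (IP) libraries, each from 5 pooled males. How the tagged ribosomal protein was brought into the cells was not given in the sources used here. Nothing in the labels says that the libraries share no animals, so each p-value reflects only library-to-library spread, which may be technical.

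Sodium channels open on depolarization and carry the upstroke of the action potential. Each has a single large α subunit that forms the pore, and β subunits, small membrane proteins with an immunoglobulin fold, alter gating and placement. Calcium channels turn depolarization into calcium entry, which triggers transmitter release at terminals and signalling in dendrites and soma. Their α1 pore is joined by an α2δ subunit outside the membrane and a β subunit in the cytoplasm, which help it reach the surface. HCN channels open on hyperpolarization and pass a depolarizing current that sets resting potential and dampens dendritic summation.

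Levels are CPM, with libraries scaled by their total counts and TMM factors, and levels compared between genes are CPM per kilobase of exon (CPM/kb). Where 3 IP values stand together they belong to IP 1, 2 and 3 in that order. The Input held 14474529 counts and the IP libraries 10031072 to 23548375, so 1 count was worth 0.0436 to 0.107 CPM, and 0 counts allowed up to 3 counts, 0.131 to 0.321 CPM. Such limits cover counting error only. The capture was checked on Crh, at 1.32 CPM before capture, compared with 501, 174 and 193 CPM after it. All 8 markers of Vip interneurons and of interneurons from the caudal ganglionic eminence passed the test for higher levels in IP. For GABAergic neurons all 6 markers lay above the Input in every IP library, and 4 passed the test. All 8 astrocyte markers lay below the Input in every IP library, but 0 passed the test. Of 8 oligodendrocyte markers 5 lay below the Input throughout IP and 1 above it. Of 6 markers of oligodendrocyte precursors 4 lay below and 2 above, and of 8 microglial markers 6 lay below and 0 above. The 8 endothelial markers all lay above the Input in every IP library, but 0 passed the test. They summed to 34.5 CPM before capture, compared with 152 to 462 CPM after it. Over all genes tested, 19.7% lay above the Input in every IP library and 24.1% below it. The test called 0.410% higher and 0.0478% lower in IP. A higher or lower value in IP cannot tell a different set of captured cells from a different amount of RNA per cell.

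With TMM scaling Cacna2d1 and Cacna2d3 lay on opposite sides of the Input, while with library totals Cacna2d3 lay on both sides. Cacna1b had the tightest IP levels of the α1 genes. The promoters of these 3 calcium channel genes are therefore shown. Each is the 250 bases before the start of transcription, from RefSeq on GRCm38.p6, at genes whose RefSeq and GENCODE starts coincide. Capitals mark GC boxes, searched as GGGCGG on both strands.
Cacna2d1 (chr5:15934441-15934690, plus strand): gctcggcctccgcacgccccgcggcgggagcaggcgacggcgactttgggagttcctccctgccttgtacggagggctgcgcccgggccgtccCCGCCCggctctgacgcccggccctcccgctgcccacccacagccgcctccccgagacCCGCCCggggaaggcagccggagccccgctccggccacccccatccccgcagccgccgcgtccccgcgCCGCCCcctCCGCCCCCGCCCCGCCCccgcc
Cacna2d3 (chr14:29721865-29722114, minus strand): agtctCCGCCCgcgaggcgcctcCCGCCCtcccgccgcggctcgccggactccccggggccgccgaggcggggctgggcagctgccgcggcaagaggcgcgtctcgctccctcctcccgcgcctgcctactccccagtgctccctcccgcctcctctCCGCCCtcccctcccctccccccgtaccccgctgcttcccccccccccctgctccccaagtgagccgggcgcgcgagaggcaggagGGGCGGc
Cacna1b (chr2:24763153-24763402, minus strand): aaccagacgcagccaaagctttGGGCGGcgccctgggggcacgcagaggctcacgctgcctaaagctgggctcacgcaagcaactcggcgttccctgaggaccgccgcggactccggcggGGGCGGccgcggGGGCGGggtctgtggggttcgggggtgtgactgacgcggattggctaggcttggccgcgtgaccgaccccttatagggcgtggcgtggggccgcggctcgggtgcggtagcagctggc
The Cacna2d1 window held 6 GC boxes and was 82.4% G or C. The Cacna2d3 window held 4 and was 80% G or C, and that of Cacna1b held 3 and was 72%. At least 1 GC box was found in 32.7% of the 32851 windows of the same length in the table, and 3 or more in 8.47%. Cacna2d1 and Cacna2d3, on opposite sides of the Input with TMM scaling, thus both had 3 or more. Over the family, 26 of 36 genes had a window, and 15 of their 36 windows held a GC box.

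The fold of IP over Input was tested with edgeR (quasi-likelihood, Benjamini-Hochberg adjustment) on the 14636 genes that passed the low-count filter. Of the 36 channel genes 32 were kept and 0 passed the adjusted threshold of 0.05, where 0.458% of all genes passed, 0.410% with higher and 0.0478% with lower levels in IP. Of the genes called, 60 were higher and 7 lower, against 50 and 15 with library totals and 51 and 15 with upper-quartile factors. DESeq2 and limma-voom also called 0. At an unadjusted p under 0.05 there were 5, 3 with higher levels in IP, among them Cacna1e, and 2 with lower, Cacnb4 and Cacnb1, while 4.43% of all genes met that limit, 3.20% higher and 1.23% lower. In 15 of the 32 genes all 3 IP libraries lay above the Input (19.7% of all genes) and in 6 all lay below (24.1% of all genes). Scaled by library totals alone, 10 lay above (12.1% of all genes) and 9 below (34.0% of all genes). The median log2 fold was 0.34 over the 32 genes and 0.083 over all genes. Without IP 1, 2 channel genes were called, Cacna1e (log2 fold 1.25, adjusted p = 0.0178) and Cacnb4 (log2 fold -1.06, adjusted p = 0.0467). Over all genes, the fit without IP 1 called 210, against 67 with every library. Leaving out IP 2 or IP 3 called 0 channel genes.

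**Figure D1:**
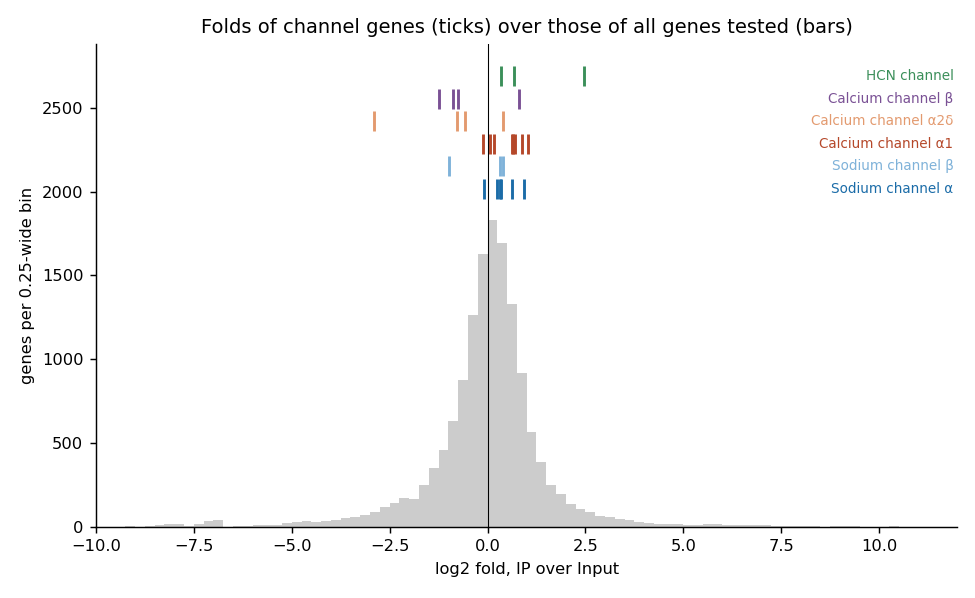
Bars count all genes tested by log2 fold of IP over Input in bins 0.25 wide, and coloured ticks above mark 28 channel genes by subfamily. Scn10a, with 0 counts in the Input, is left out. The HCN ticks drawn lie to the right of 0 and 3 of the 4 calcium channel β ticks to the left.

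Levels of the 3 main sodium channel α genes were above the Input in every IP library, by small folds. Scaled by library totals alone, only Scn2a of the 3 stayed above throughout, with Scn8a below the Input in IP 1 and IP 3 and Scn1a below it in IP 2. Scn8a, which encodes the channel that dominates the initial segment and nodes of mature axons, was at 659 CPM in whole tissue, against 707, 1027 and 752 CPM on captured ribosomes. Scn2a, whose channel serves early axons and the initial segment of excitatory cells, was at 426 CPM and at 508, 841 and 626 CPM. IP 2 was the highest library for both genes, and the groups did not overlap for either. The log2 fold of Scn8a was 0.33 ± 0.36 (SE, 95% interval -0.43 to 1.09), and that of Scn2a was 0.63 ± 0.39 (-0.19 to 1.45). Both intervals include no change and also a 2-fold higher level.

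Scn1a, the gene of the channel known for driving fast-spiking interneurons and for its loss in Dravet syndrome, was at 169 CPM before capture, compared with 235, 177 and 228 CPM after it. Its log2 fold was 0.33 ± 0.45 (95% interval -0.60 to 1.27), with IP 2 only just above the Input. Scn3a, most used in the developing brain, was at 68.3 CPM for the Input, with 51.8 to 123 CPM for IP, on both sides of the Input. These 4 brain channels together gave 97.5% of the summed α level per exon length in the Input and 97.2%, 98.5% and 92.2% in the IP libraries. Scn8a made up 42.5% of the α sum in the Input and 38.6 ± 3.42% in IP (SD, n = 3), and Scn2a 34.0% and 37.8 ± 4.82%. Per exon length there were 0.800 Scn2a for each Scn8a in the Input and 0.889, 1.01 and 1.03 in IP, whereas the ratio of Scn1a to Scn8a was 0.363 in the Input and 0.471, 0.243 and 0.429 in IP, with no common direction.

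Further sodium channel α genes, known mainly from other tissues, were rare. Scn7a, the gene of the sodium sensor Nax of glia and other cells, was at 12.05 CPM in whole tissue, against 9.89, 6.31 and 52.5 CPM on captured ribosomes. Only IP 3 was above the Input, and without it the log2 fold went from 0.93 to -0.57.

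IP 3 was also the library with the most Myh11, a smooth muscle gene (1.26 CPM before capture, compared with 2.18, 4.06 and 35.6 CPM after it), and the most Pecam1, an endothelial gene (0.719 CPM and 6.06, 4.92 and 30.9 CPM). Of the 8 mural cell markers 4 lay above the Input in all 3 IP libraries. Their summed level was 77.2 CPM for the Input, with 137, 357 and 228 CPM for IP, and that of the endothelial markers 34.5 CPM and 152, 462 and 200 CPM, both highest in IP 2. Without Rgs5, its most abundant gene, the mural sum was 18.9 CPM and 25.9, 64.5 and 75.2 CPM, highest in IP 3. Myh11 alone gave 35.6 of the 75.2 CPM in IP 3. Without Slc2a1, its most abundant gene, the endothelial sum was 11.6 CPM and 102, 156 and 97.1 CPM, with IP 3 the lowest IP library. Other markers of these 2 lists were split. IP 3 was also highest for Acta2, Tagln, Vtn, Cldn5 and Cdh5. IP 2 was highest for Pdgfrb, Rgs5, Abcc9, Flt1, Slc2a1, Tek and Ly6c1, and IP 1 for Kcnj8 and Abcb1a. The part of vascular RNA in the value of Scn7a was not tested.

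Scn9a, Scn10a and Scn11a belong to peripheral sensory neurons and Scn4a to skeletal muscle. Scn9a was at 9.11 CPM in whole tissue, against 5.14 to 10.8 CPM on captured ribosomes, with overlapping groups. Scn10a had 44 counts in IP 1, or 1.92 CPM, and 0 in each other library. The limits of those zeros were 0.180 CPM for the Input, 0.321 CPM for IP 2 and 0.259 CPM for IP 3. Scn4a (Input 0 counts, IP 0, 3 and 2) and Scn11a (Input 0 counts, IP 7, 1 and 0) did not pass the low-count filter.

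Among sodium channel β genes, Scn3b lay above the Input in every IP library (on both sides with library totals), Scn4b below it, and Scn2b on both sides. Scn2b, whose product is linked to the α subunit by a disulphide bond, was at 128 CPM before capture, compared with 192, 173 and 115 CPM after it. Scn3b was at 112 CPM and 177, 132 and 133 CPM. The log2 folds were 0.32 ± 0.49 for Scn2b and 0.40 ± 0.50 for Scn3b (SE).

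Scn4b, whose product is tied to resurgent sodium current in fast-firing neurons, lay below the Input in every IP library. It was at 34.1 CPM for the Input, with 13.4, 26.4 and 12.2 CPM for IP (log2 fold -0.98 ± 0.92, 95% interval -2.91 to 0.95), a difference that did not pass the test. Its share of the β sum was 6.30% in the Input and 2.02%, 3.61% and 2.80% in IP. Pvalb, the marker of fast-spiking interneurons, was at 20.3 CPM in whole tissue, against 2.22, 21.9 and 4.83 CPM on captured ribosomes, and was also highest in IP 2 among the IP libraries. Of the 6 markers of these cells 0 passed the test, 2 lay above the Input throughout IP and 1 below it throughout, and they summed to 398 CPM before capture, compared with 595, 670 and 734 CPM after it. Without Kcnc1, the most abundant, the sum was 209.8 CPM and 231, 329 and 236 CPM, and 4 of the 6 markers had fitted folds below 0. Their part in the level of Scn4b was not tested.

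**Figure D2:**
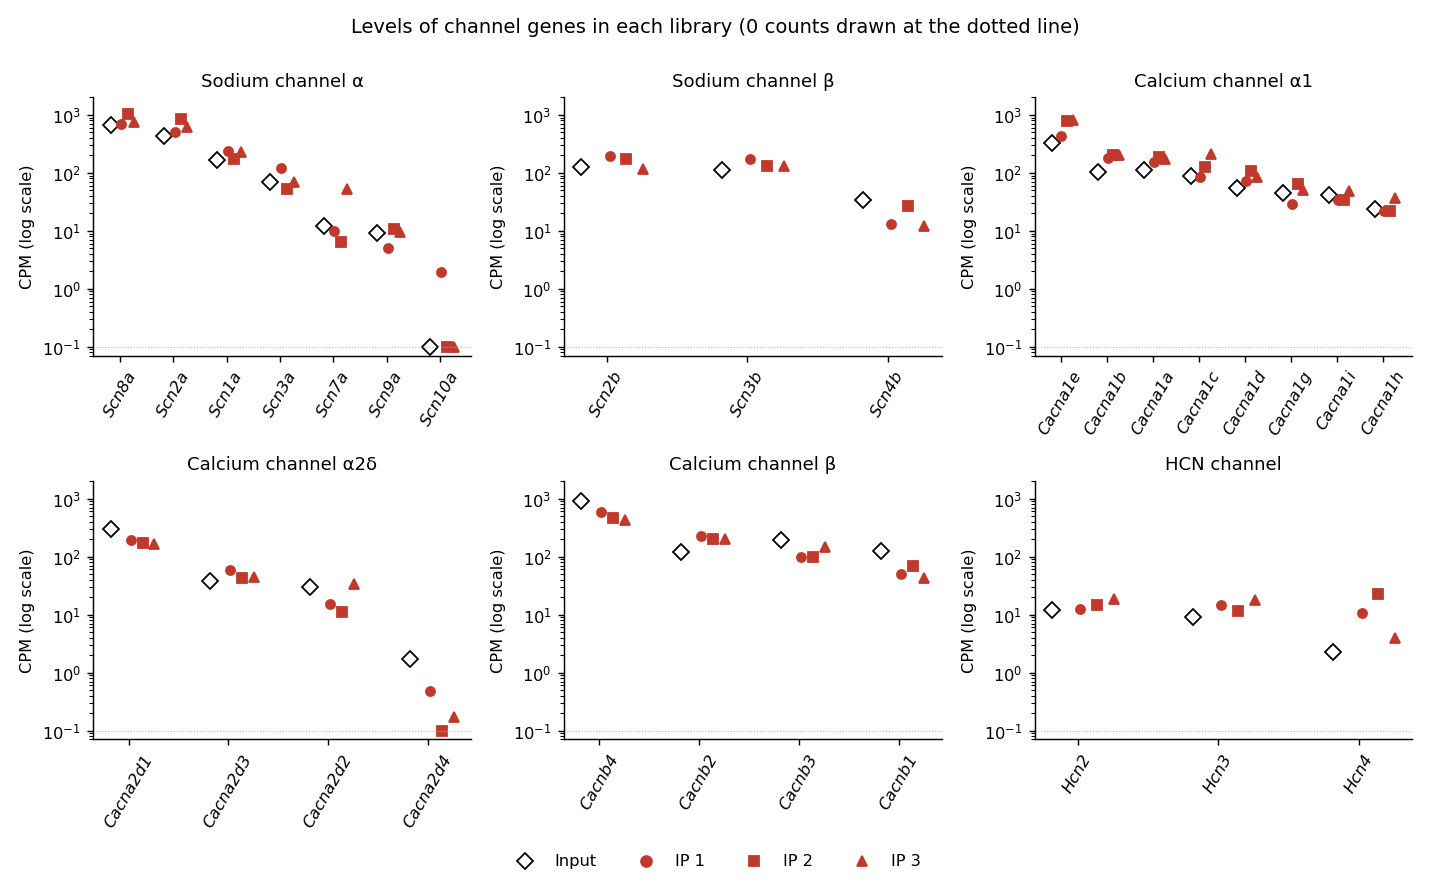
Each panel gives the CPM (log axis) of tested genes of a subfamily, with the Input as an open diamond and IP 1, 2 and 3 as a filled circle, square and triangle. Cacnb4, Cacnb3 and Cacnb1 have all IP symbols under the diamond and Cacnb2 all above it. Symbols on the dotted line stand for 0 counts.

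Among calcium channel α1 genes, the Cav2 group, whose channels open at high voltage and serve transmitter release, had all 3 genes above the Input in every IP library, and the T-type group had 0 of 3. None of these genes passed the test. Of all genes tested, 19.7% lay above the Input throughout IP, or 12.1% with library totals. Cacna1e, the gene of the R-type pore (chr1:154390731-154884501, minus strand), was at 327 CPM for the Input, with 433, 782 and 802 CPM for IP. All IP libraries were above the Input, with IP 1 the nearest to it. Its log2 fold was 1.04 ± 0.42 (SE, 95% interval 0.15 to 1.92, edgeR adjusted p = 0.903).

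Cacna1b, of the N-type pore, was at 104 CPM in whole tissue, against 180, 201 and 201 CPM on captured ribosomes, and Cacna1a, of the P/Q-type pore, at 110 CPM and 154, 184 and 172 CPM. The IP libraries agreed closely, with a coefficient of variation of 6.34% for Cacna1b and 9.08% for Cacna1a, and lay wholly above the single Input. The log2 folds were 0.89 ± 0.48 for Cacna1b (95% interval -0.11 to 1.89) and 0.63 ± 0.48 for Cacna1a (-0.39 to 1.64). Both intervals include no change.

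The L-type genes in cortex are Cacna1c and Cacna1d, whose channels link activity to transcription. Cacna1d was at 54.1 CPM before capture, compared with 71.9, 108 and 83.4 CPM after it, all higher (log2 fold 0.70 ± 0.62). Cacna1c, also a gene of vascular smooth muscle, was at 89.9 CPM and at 85.0, 127 and 213 CPM, highest in IP 3 and below the Input in IP 1. Its log2 fold was 0.66 ± 0.57 with all libraries and 0.24 without IP 3. The other L-type genes were near 0. Cacna1f, of the retina, had 4 counts in the Input and 0 in IP, and Cacna1s, of skeletal muscle, had 0 counts in each library.

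The T-type genes Cacna1g, Cacna1h and Cacna1i encode pores that open near rest and support burst firing. In the Input they were at 45.3, 23.9 and 42.0 CPM, and in IP at 29.0 to 63.5, 21.6 to 37.2 and 34.3 to 47.8 CPM, on both sides of the Input for each gene. Log2 folds were 0.066, 0.17 and -0.11, and with library totals all 3 were negative (-0.21, -0.10 and -0.38). Per exon length, the Cav2 genes made up 62.7% of all α1 in the Input, against 72.7%, 71.7% and 68.9% in IP. The T-type genes made up 21.2% in the Input and 12.8%, 12.8% and 13.96% in IP, below the Input in every library, and the L-type genes 16.2% and 15.7 ± 1.33%.

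Of the α2δ genes, the most abundant lay below the Input and the next above it (on both sides with library totals), and none passed the test. Cacna2d1 (chr5:15934691-16374511, plus strand), whose product binds gabapentin, was at 299 CPM for the Input, with 190, 172 and 163 CPM for IP. These levels were close to each other and all lower than the Input (log2 fold -0.77 ± 0.41, 95% interval -1.64 to 0.089). Cacna2d3 was at 37.3 CPM and 59.6, 42.1 and 44.6 CPM, all higher (log2 fold 0.39 ± 0.74, -1.17 to 1.94). Per exon length there were 0.178 Cacna2d3 for each Cacna2d1 in the Input and 0.447, 0.349 and 0.390 in IP. The share of Cacna2d3 in the subfamily went from 13.2% to 25.1 ± 2.93% (SD, n = 3).

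Cacna2d2, another gabapentin site, was at 29.9 CPM in whole tissue, against 15.3, 11.01 and 33.7 CPM on captured ribosomes, with IP 3 above. Cacna2d4, known from the retina, was near its limit, with 29 counts in the Input and 11, 0 and 2 in IP.

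The calcium channel β genes were split, with 3 below the Input in every IP library and Cacnb2 above it, and none passed the test. Of all genes tested, 24.1% lay below and 19.7% above, or 34.0% and 12.1% with library totals. Cacnb4 (chr2:52428320-52676831, minus strand), the gene mutated in the ataxic lethargic mouse, had the highest CPM of all 36 genes in the Input. It was at 909 CPM there and at 594, 456 and 426 CPM in IP 1, 2 and 3. Cacnb3 was at 191 CPM and 97.4, 97.4 and 146 CPM, and Cacnb1, best known from skeletal muscle, at 126 CPM and 49.2, 68.7 and 42.7 CPM. Every IP library was below the Input for these 3 genes.

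Log2 folds were -0.88 ± 0.35 for Cacnb4 (95% interval -1.61 to -0.16, edgeR adjusted p = 0.832), -0.75 ± 0.48 for Cacnb3 (-1.75 to 0.25) and -1.24 ± 0.58 for Cacnb1 (-2.46 to -0.021, edgeR adjusted p = 0.9999). Cacnb2 (chr2:14603088-14987908, plus strand), of a β subunit that can anchor to the membrane, went the other way, at 119 CPM before capture, compared with 224, 198 and 198 CPM after it (log2 fold 0.80 ± 0.47, -0.17 to 1.77). All its IP values were above the Input and within a coefficient of variation of 7.40%. Its share of the β sum per exon length was 4.83% in the Input, against 14.3%, 14.2% and 13.8% in IP. Its ratio to Cacnb4 was 0.0885 before capture, against 0.256, 0.294 and 0.315 after it. Of the exon bases of Cacnb4 15.99% are shared with A430018G15Rik on the opposite strand, and 7.32% of those of Cacnb2 with 2 antisense genes and a pseudogene, also on the opposite strand. Whether the counting used strand was not given in the sources used here.

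The summed levels of the calcium channel auxiliary subunits lay below the Input and that of the pores above it. Per exon length, all calcium channel β genes summed to 186 CPM/kb in the Input and 118, 105 and 108 CPM/kb in IP 1, 2 and 3, and all α2δ genes to 32.3 and 24.1, 20.1 and 22.5 CPM/kb. The α1 genes summed to 52.9 CPM/kb in the Input and 66.9, 93.9 and 97.2 CPM/kb in IP. The ratio of β to α1 was thus 3.52 in the Input, against 1.77, 1.12 and 1.11 in IP, and that of α2δ to α1 was 0.611, against 0.360, 0.214 and 0.231. The sodium channel β to α ratio lay on both sides of the Input, at 1.11 before capture, against 1.12, 0.957 and 0.658 after it. No test was run on these sums and ratios, and an exact permutation of 1 against 3 libraries cannot give a p below 0.25.

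**Figure D3:**
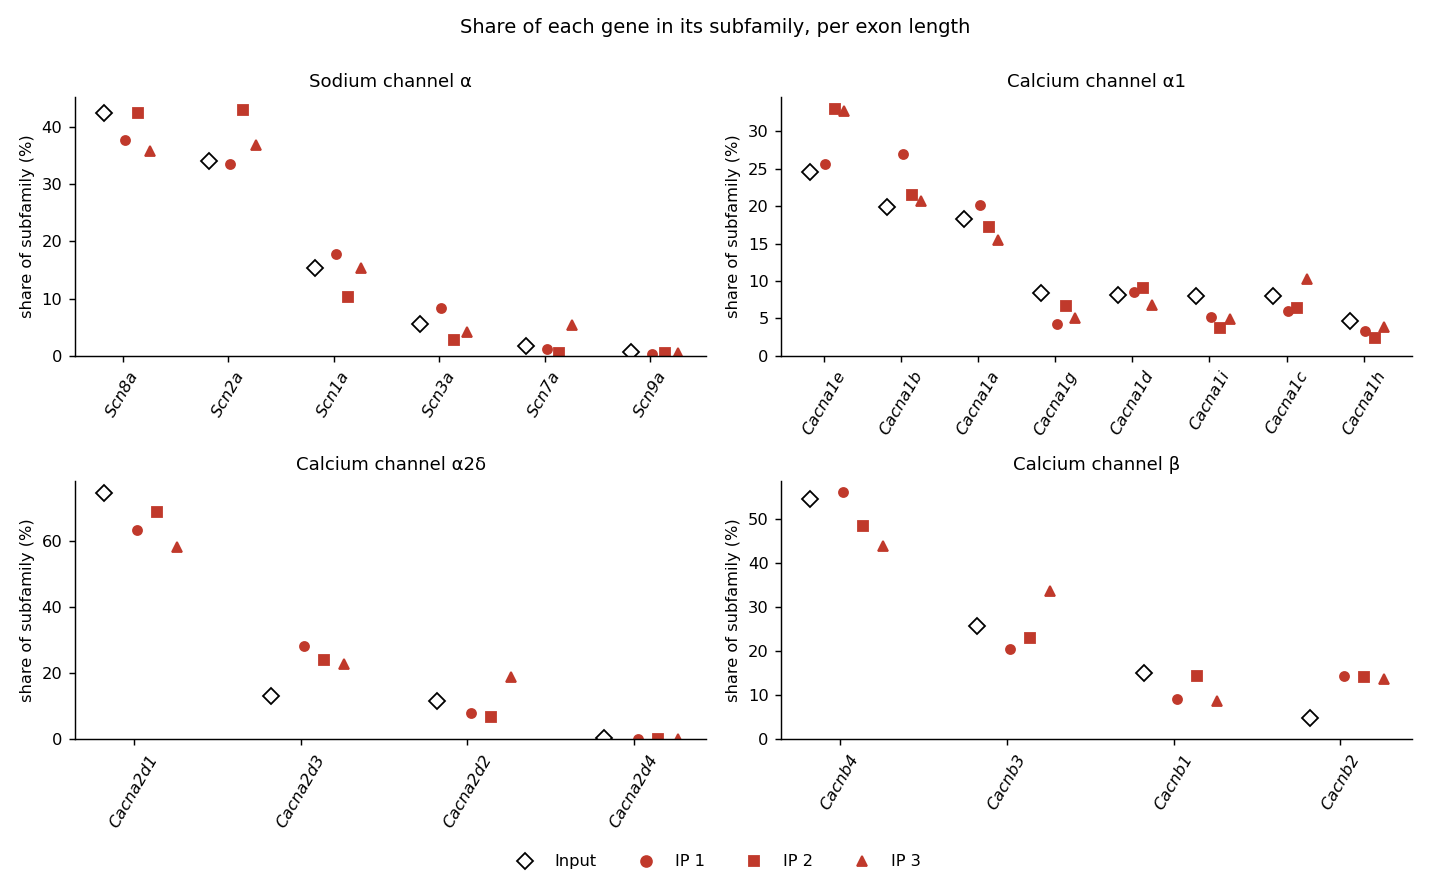
Points give the share (%) of genes of 4 subfamilies in the summed level of their subfamily per exon length, with the Input as an open diamond and IP 1, 2 and 3 as a circle, square and triangle. Genes under 0.5% in both fractions are left out. Cacnb2 and Cacna2d3 sit above their diamonds in all IP libraries.

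Of the HCN genes, Hcn2, Hcn3 and Hcn4 lay above the Input in every IP library, as did 19.7% of all genes tested. With library totals Hcn2 lay on both sides, and 12.1% of all genes lay above. None of the HCN genes passed the test. Hcn2, of a slower channel, was at 11.93 CPM and 12.6, 14.3 and 18.3 CPM, hardly above the Input in IP 1. Hcn3 was at 8.99 CPM and 14.4, 11.3 and 17.6 CPM, but 17.1% of its exon bases are shared with Pklr on the opposite strand.

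Hcn4, the slowest channel and that of the cardiac pacemaker, had 37 counts in the Input and 246, 208 and 46 in IP, or 2.22 CPM against 10.7, 22.2 and 3.97 CPM. IP 2 was highest and IP 3 nearest to the Input, and the log2 fold was 2.47 ± 1.61 (95% interval -0.91 to 5.84). It was 1.72 without IP 2. Per exon length, all HCN genes summed to 16.7 CPM/kb before capture, against 27.3, 30.5 and 32.8 CPM/kb after it, so the sum lay above the Input in every IP library.

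**Figure D4:**
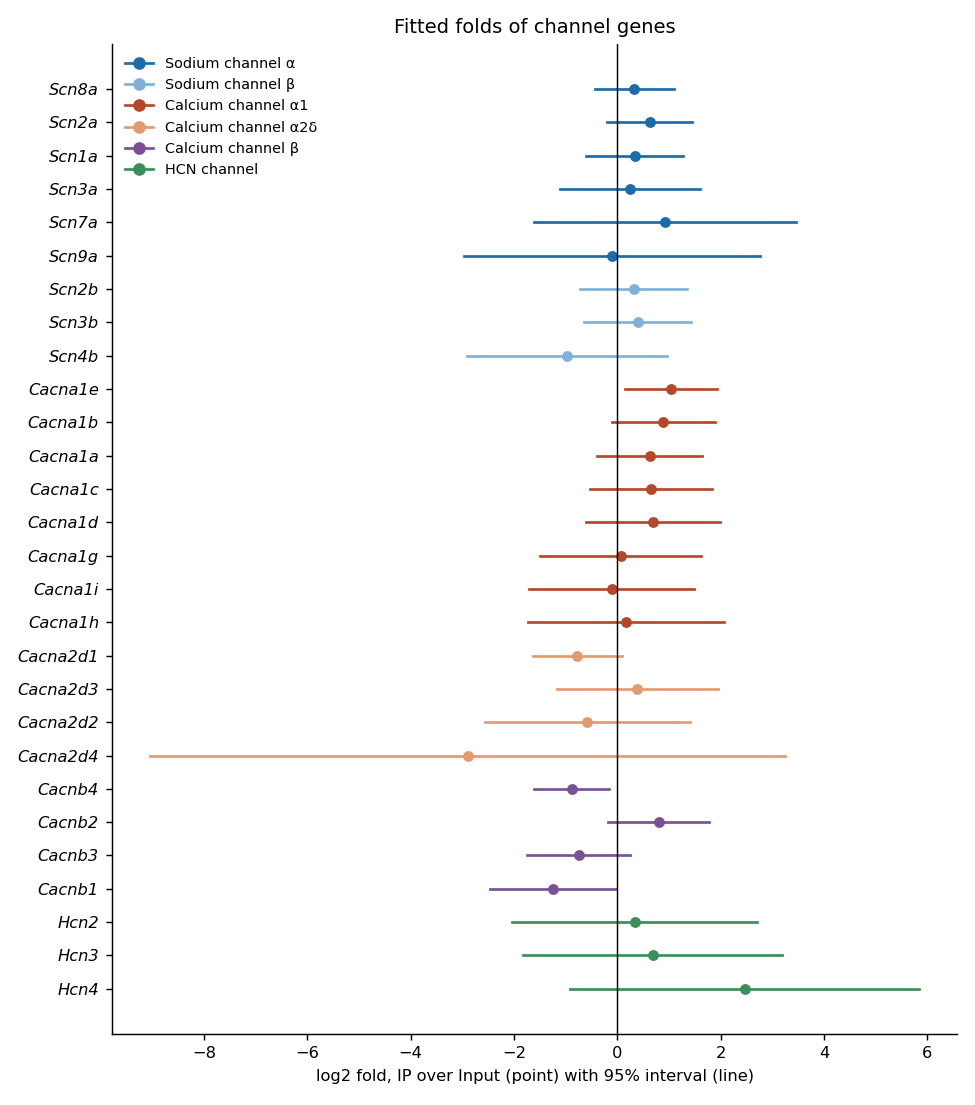
Points are fitted log2 folds of IP over Input for 28 channel genes, with lines for the 95% interval, coloured by subfamily. Scn10a is left out, with 0 counts in the Input. The line of Cacna1e lies right of 0 and those of Cacnb4 and Cacnb1 left of it, before adjustment for the number of genes.

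By mean level per exon length in IP, the most abundant genes included Cacnb4 (54.9 ± 10.03 CPM/kb, SD, n = 3), Scn8a (52.6 ± 11.01) and Scn2a (51.7 ± 13.3), whose IP ranges overlapped. Scn2b (34.3 ± 8.55), Cacnb3 (28.3 ± 6.97), Scn3b (26.9 ± 4.71) and Cacna1e (26.6 ± 8.22) followed, again with overlapping neighbours. The first step at which all IP values of a gene exceeded all of the next was from Cacnb1 (11.8 ± 2.996), at rank 15, to Cacna1d (6.94 ± 1.44). In the Input Cacnb4 led with 101 CPM/kb, and Cacnb1 ranked 6, against 15 in IP. Exon lengths are unions over transcripts, so levels of genes with many isoforms are understated.

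Channel genes are long, with a median exon length of 9026 bases against 4476 for all genes tested. Over all genes the median log2 fold was 0.044 under 3 kb and 0.26 at 10 kb or more, while the 13 channel genes of at least 10 kb had a median of 0.63. With the trend on length removed, an alternative chosen after seeing the data, the medians kept their signs, at 0.33 for calcium channel α1 genes (0.64 before), 0.61 for HCN genes (0.81 before) and -0.91 for calcium channel β genes (-0.82 before). Removing the trend also took out the overall offset of the folds, whose median over all genes was 0.083. The shifts in these medians are thus not those of length alone. Length moved with the result in this way, and its part in single genes was not tested.

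Genes of known channel partners gave 0 calls among 28 tested of 32 found (0.458% of all genes passed), with a median log2 fold of 0.022. At an unadjusted p under 0.05, 3 were higher in IP and 1 lower, against 3.20% and 1.23% of all genes. Calmodulin, the calcium sensor bound by sodium and calcium channels, is encoded by several genes. Of these, Calm2 was at 1722 CPM before capture, compared with 1946, 1093 and 1169 CPM after it. Calm3 was at 757 CPM and 1353, 731 and 766 CPM, so IP lay on both sides of the Input for both genes.

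Further partners were chosen after their values were seen. Fgf11, which encodes a cytoplasmic factor that binds sodium channels, was at 33.3 CPM before capture, compared with 103, 125 and 154 CPM after it (log2 fold 1.94 ± 0.61, edgeR adjusted p = 0.395). Cacng5, which belongs to the γ subunit family and mainly modulates AMPA receptors, was at 4.50 CPM and 42.3, 36.5 and 103.6 CPM (log2 fold 3.75 ± 1.003, edgeR adjusted p = 0.186). Pex5l, which encodes the HCN trafficking protein TRIP8b, was at 350 CPM and 153, 319 and 176 CPM, all below the Input. The leak channel gene Nalcn and its partners Unc79 and Unc80 were above the Input in every IP library, Unc80 at 609 CPM and 891 ± 102 CPM. Fam155a, of the same complex, was at 172 CPM and 84.2, 68.5 and 199 CPM, on both sides of the Input (log2 fold -0.56 ± 0.56).

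Many of these channel genes are also expressed by pyramidal cells. Of 9 excitatory markers 5 were lower than the Input throughout IP, as were 24.1% of all genes. Of the 9, 1 passed the test, Nrgn (log2 fold -2.11, edgeR adjusted p = 0.0141). All 9 summed to 4988 CPM for the Input, with 3267, 6291 and 4966 CPM for IP, and Camk2a, the most abundant, was at 2901 CPM and 2589, 4974 and 4159 CPM, on both sides of the Input. The sum of the other markers was 2087 CPM and 678, 1317 and 807 CPM. IP 2, with the most of these markers, was also highest for Scn8a, Scn2a and Pex5l, and the part of excitatory RNA in those values was not tested.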

How the data were processed

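RNA was measured in 1 Input and 3 IP libraries, grouped by their titles. The authors deposited raw counts per gene, 1 library per file, with Entrez identifiers and symbols per the file headers. The submitters' processing notes name STAR 2.0.0e, HTSeq and mm10, while the names of the deposited tables mention subread, so the counter is not settled. Annotation, strand and the treatment of multiply mapped reads are not given in the sources used here, so reads of the similar sodium channel genes may have been dropped or split.

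The analysis ran in R 4.3.3 with edgeR 4.0.16. After filterByExpr (minimum count 10) and TMM scaling, 14636 genes entered a two-sided quasi-likelihood F test, called at a Benjamini-Hochberg adjusted p under 0.05. The 9 genes without a symbol, with at most 0.0221% of a library, stayed in. The lone Input was assumed to vary like the IP libraries (2 residual degrees of freedom, prior 17.0), and the biological coefficient of variation was 0.787. Standard errors (SE) are the absolute log2 fold over the root of F. No library copied another (chi-square per degree of freedom at least 84.7). The procedure was tested on simulated data.

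Exon lengths, overlaps and strands came from GENCODE M21 on GRCm38, the build of mm10, and promoters from RefSeq. Alternatives were DESeq2 1.42.0, limma-voom (limma 3.58.1), RLE, upper-quartile and total scaling, other filters, an adjusted p under 0.01, leaving out each IP library, and removal of a lowess trend of fold on exon length. That trend, and the side of the Input by library totals, were chosen after seeing the data. Values by library were to be given for the 3 most abundant genes of each subfamily and any past the threshold, and partners named likewise. Other genes given by library were chosen after their values were seen. Members and lists were chosen with earlier results of these data known. Some genes that the rule covers are not reported here by name and are not drawn, while counts, medians and sums include them.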

Additional observations from a re-analysis of the deposited data

How the results depend on the processing

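No paired analysis was possible because there was only 1 Input library for the 3 IP libraries. Directions of 26 of the 32 tested channel genes held under every alternative that could be fitted for them, and 6, among them Scn3a, Scn7a, Scn9a, Cacna1g and Cacna1h, changed sign in at least 1. The cause was not tested. The median of the sodium channel β genes, 0.21, was -0.011 with upper-quartile factors, -0.066 with library totals, 0.12 without IP 1, 0.020 without IP 2 and 0.40 without IP 3. The count of channel genes called was 0 throughout, except 2 without IP 1, so it ranged from 0 to 2 with a library left out. The stricter threshold and the removal of genes sharing over 10% of exon bases could only give 0. Both drew on the main fit, which called 0. Over all genes the count was 67, with 182 by DESeq2, 108 without a low-count filter, 39 at an adjusted p under 0.01, and 90 to 210 with a library left out (210 without IP 1 and 105 without IP 2). Genes lower in IP were 7, with 15 by upper-quartile factors or library totals, 14 by limma-voom and 25 without IP 1.

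Median log2 folds moved with scaling as those of all genes did, which went from 0.083 to -0.13 with upper-quartile factors and -0.19 with library totals, and were -0.14 with limma-voom, -0.031 without a low-count filter and 0.020 to 0.057 with a library left out. In the main fit the medians were 0.34 for all channel genes, 0.48 for sodium channel α, -0.82 for calcium channel β and 0.81 for HCN. They were 0.64 for calcium channel α1 and -0.68 for α2δ. That of sodium channel α includes Scn10a, with 44 counts in IP 1 alone, which the filter of at least 5 CPM leaves out. With upper-quartile factors the medians were 0.12 for all channel genes, 0.26 for sodium channel α, -1.03 for calcium channel β and 0.59 for HCN. With library totals they were 0.064, 0.21, -1.09 and 0.54, and 0.37 for calcium channel α1. With a mean of at least 5 CPM they were 0.23, 0.22, -0.93 and 0.70, and with limma-voom 0.32 for sodium channel α. With a library left out the median ran from 0.29 to 0.43 for all channel genes, from 0.68 to 0.89 for HCN, from 0.43 (without IP 3) to 0.73 for calcium channel α1 and from -0.96 to -0.53 for α2δ. With the length trend removed it was 0.24 for all channel genes, 0.26 for sodium channel α, 0.33 for calcium channel α1, -0.91 for calcium channel β and 0.61 for HCN.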
